A study of Mus musculus with 60 samples.

Results

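The comparison was between the hippocampus of mammary tumor-bearing mice and that of vehicle injected mice, with time of day held as a covariate. Of 60 listed samples, 56 had values, and 20 of these were hippocampus, chosen by their labelled region: 10 from tumor-bearing and 10 from vehicle injected mice. The animals were 13-week-old female Balb/C mice. Tumor-bearing mice had received 67NR cells, a line that goes back to 1 mammary tumor of a mouse and does not metastasize, in DMEM into mammary glands 4 and 9, and vehicle injected mice had received DMEM alone into the same glands. All were perfused with saline. Collection was on day 25, either at mid-dark (ZT19, in hours after lights on) or at mid-light (ZT7), and 5 mice stood for each of the 4 combinations of tumor status and phase. The controls were thus injected as well, and no uninjected mice are among these samples. Each mouse gave 1 hippocampus sample, so that replicates were separate animals. The assay was a nanoString nCounter panel of 770 mouse neuroinflammation genes, in which barcoded probes bound to each transcript are counted, and values are log2 of normalized counts.

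The hippocampus is a cortical structure built mainly from glutamatergic pyramidal and granule neurons, with inhibitory interneurons, astrocytes, oligodendrocytes, microglia and a dense capillary bed. A tumor outside the brain can reach it through cytokines and other signals in the blood, which act first on endothelial cells and on the cells around vessels. Endothelial cells and astrocytes then release secreted proteins of the acute-phase type, lipid mediators such as prostaglandins and oxysterols, and adhesion molecules. The panel samples these routes together with markers of each brain cell type.

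The labelled region carried its expected neuronal markers. Slc17a7, the vesicular glutamate transporter of forebrain excitatory neurons, was between 12.65 and 13.29 in the 20 hippocampus samples against at most 9.05 in hypothalamus and 10.63 in brain stem, and Tbr1, a forebrain neuronal transcription factor, was between 7.63 and 8.94 against at most 5.98 in the other regions. Slc17a6, the transporter of diencephalic and brain stem excitatory neurons, was between 7.20 and 10.06 in hippocampus and at least 12.46 elsewhere. Sample medians were 8.08 to 8.09, and 157 of the 770 rank positions held the same value in every hippocampus sample, as quantile normalization makes them. A value is therefore close to a rank within its sample, and a difference between groups is a difference in the place of a gene among the panel genes. Pearson correlations across genes between pairs of hippocampus samples, where genes are not independent replicates, were 0.974 to 0.993. The precision was set by the 10 mice in each group: the median standard error of a difference was 0.08, and for 657 of 769 genes (85.4%) the 95% confidence interval lay within ± 0.5. RNA concentrations were 578.8 to 2109 ng/ul in tumor-bearing and 381.7 to 1744 ng/ul in vehicle injected mice, and with their log2 as a covariate the same 4 genes passed as below. Total counts per sample are not used here, and depth is unknown. Kdm5d and Uty, Y-linked genes that female mice lack, gave values from -0.37 to 4.88, which served as a yardstick for background, and 132 genes had a mean below 4.88. Their medians were 3.53 and 3.43, and Kdm5d did not exceed 4.09, so that 4.88 is the upper end of this range and not its usual level.

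By limma's adjusted p value under 0.05, 4 of 769 genes were upregulated in the hippocampus of tumor-bearing mice (0.52%) and none was downregulated, while at an unadjusted p value under 0.05 there were 45 genes (5.85%), 25 of them higher (3.25%) and 20 lower (2.6%). The 4 upregulated genes were Lcn2, Ch25h, Ly6a and Fas. Lcn2 encodes lipocalin, a secreted iron-siderophore binding protein of innate defence. Ch25h encodes the hydroxylase that turns cholesterol into an oxysterol, Ly6a encodes a surface protein that marks endothelial cells in the brain, and Fas encodes a death receptor that is also a p53 target. Over all genes tested the median log2 difference was -0.01, with 340 positive and 429 negative. Lcn2 was the one gene of 769 (0.13%) whose groups did not overlap.

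**Figure D1:**
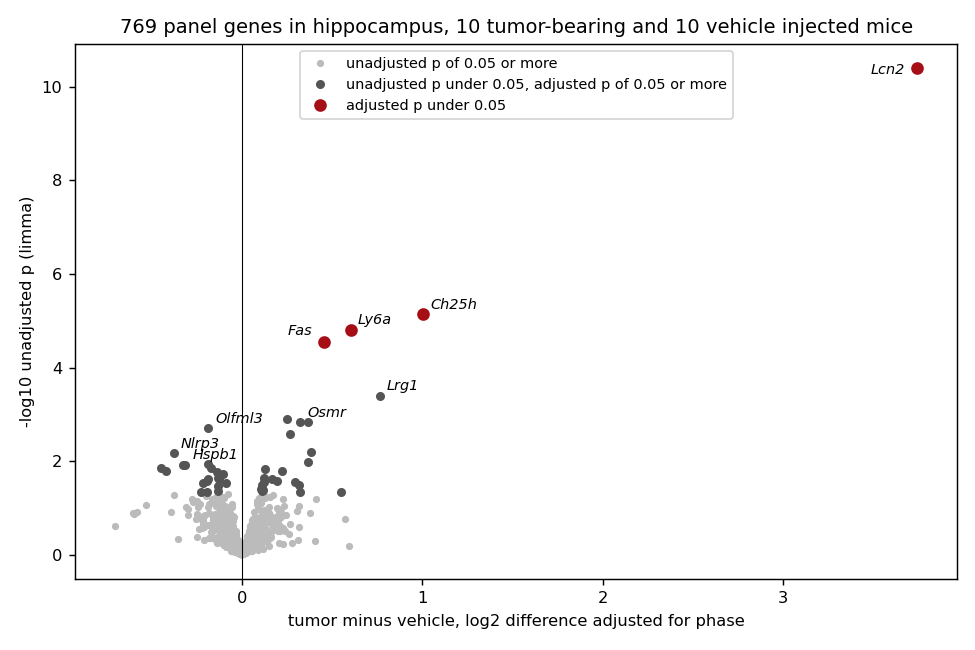
Difference between tumor-bearing and vehicle injected mice for each of 769 panel genes in hippocampus (x axis, log2 difference adjusted for phase) against -log10 of the unadjusted limma p value (y axis), n = 10 mice per group. Lcn2 lies alone at 3.74, Ch25h, Ly6a and Fas (red) lie at 1.00, 0.60 and 0.46, and no gene on the negative side passed the adjusted threshold.

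Lcn2, the secreted iron-binding lipocalin, had the largest rise. In tumor-bearing mice its log2 values were 6.29, 7.42, 7.83, 7.38 and 7.38 in the mid-dark group and 7.17, 6.57, 8.49, 8.21 and 5.98 in the mid-light group. In vehicle injected mice they were 4.23, 2.87, 3.46, 3.55 and 3.84 in the mid-dark group and 4.16, 3.48, 3.32, 3.09 and 3.30 in the mid-light group. Each tumor-bearing mouse lay above each vehicle injected mouse, and the spread within the tumor-bearing group was wider at mid-light than at mid-dark. The means were 7.27 ± 0.81 and 3.53 ± 0.44 (SD, n = 10 each), a log2 difference of 3.74 (SE 0.28, 95% confidence interval 3.15 to 4.33, adjusted p = 3.07e-08). This is a 13.4-fold difference (8.90 to 20.1) on the normalized scale. All 10 vehicle values lay below the highest Y-linked value of 4.88 and all 10 tumor values above it, so that the size of this fold rests on where background lies in vehicle injected mice. Counted as place among the 770 panel genes from the lowest, Lcn2 stood at 8.5 to 72.5 (median 24.5) in vehicle injected mice and at 209 to 425 (median 316.5) in tumor-bearing mice.

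Ch25h, the oxysterol-producing hydroxylase, was low in all samples. Its log2 values in tumor-bearing mice were 3.84, 5.16, 4.95, 4.72 and 4.15 in the mid-dark group and 5.22, 4.73, 5.41, 4.97 and 4.51 in the mid-light group. In vehicle injected mice they were 3.62, 3.73, 3.28, 3.91 and 3.51 in the mid-dark group and 3.43, 3.74, 3.80, 4.37 and 4.23 in the mid-light group. The groups overlapped at their edges, and all 10 tumor-bearing mice lay above the vehicle median. The means were 4.77 ± 0.49 and 3.76 ± 0.34 (SD, n = 10 each), a log2 difference of 1.00 (SE 0.17, 95% confidence interval 0.66 to 1.35, adjusted p = 0.0028). All 10 vehicle values and 5 of the 10 tumor values lay below the highest Y-linked value. Its median place among the panel genes was 38.75 in vehicle injected and 123.25 in tumor-bearing mice.

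Ly6a, the endothelial surface protein also called Sca-1, was well above that background in all mice. Its log2 values in tumor-bearing mice were 7.81, 7.11, 7.49, 7.88 and 7.19 in the mid-dark group and 7.23, 7.63, 7.71, 7.78 and 7.63 in the mid-light group. In vehicle injected mice they were 7.01, 6.70, 6.90, 6.77 and 6.63 in the mid-dark group and 7.44, 6.99, 6.86, 6.98 and 7.16 in the mid-light group. At mid-dark no tumor-bearing mouse was as low as any vehicle injected mouse, and at mid-light 1 mouse of each group lay within the other's range. The means were 7.55 ± 0.28 and 6.94 ± 0.23 (SD, n = 10 each), a log2 difference of 0.60 (SE 0.11, adjusted p = 0.00399), or 1.52-fold (95% confidence interval 1.30 to 1.77). Ly6a has close relatives in the Ly6 family, and cross-binding of its probe was not tested.

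Fas, the death receptor, differed by the smallest step of the 4. Its log2 values in tumor-bearing mice were 6.07, 5.79, 5.73, 6.01 and 5.73 in the mid-dark group and 6.05, 6.08, 5.98, 6.17 and 5.93 in the mid-light group. In vehicle injected mice they were 5.27, 5.25, 5.64, 5.92 and 5.28 in the mid-dark group and 5.57, 5.59, 5.42, 5.74 and 5.29 in the mid-light group. A single vehicle injected mouse at 5.92 and another at 5.74 lay inside the tumor range. The means were 5.95 ± 0.15 and 5.50 ± 0.23 (SD, n = 10 each), a log2 difference of 0.46 (SE 0.08, adjusted p = 0.0055), or 1.37-fold (95% confidence interval 1.22 to 1.55).

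**Figure D2:**
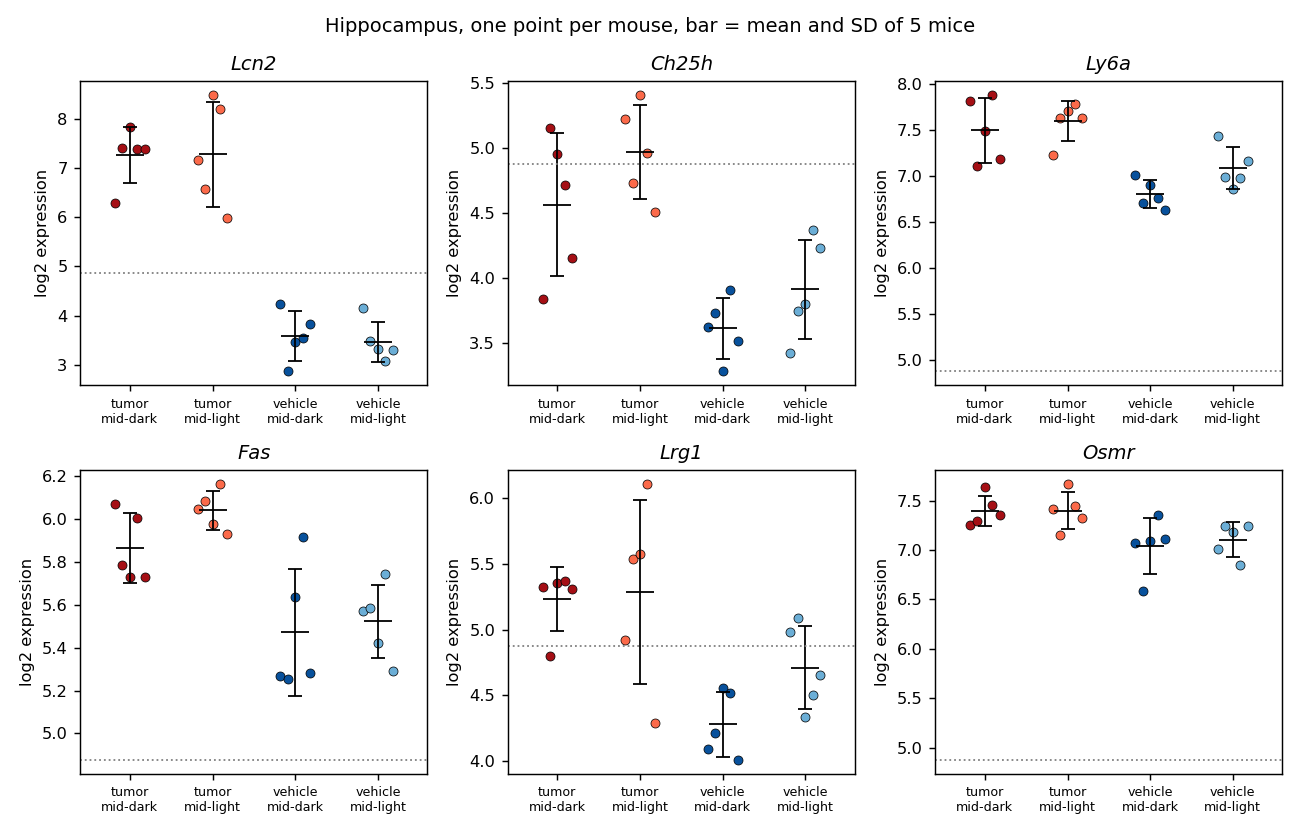
Log2 expression (y axis) in hippocampus of each mouse in the 4 groups (x axis) for Lcn2, Ch25h, Ly6a, Fas, Lrg1 and Osmr, with black bars for the mean and SD of 5 mice and a dotted line at 4.88, the highest value of a Y-linked gene. Each panel has its own y range. Lcn2 groups are apart, with all tumor values above the line and all vehicle values below it, and the other genes overlap between tumor-bearing and vehicle injected mice.

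The 4 differences were similar in size at both times of day. At mid-dark and mid-light the log2 differences were 3.67 and 3.81 for Lcn2, 0.95 and 1.06 for Ch25h, 0.69 and 0.51 for Ly6a, and 0.39 and 0.52 for Fas. The tumor by phase interaction had limma adjusted p values of 0.957, 0.942, 0.862 and 0.88 for these genes, which does not show that the phases were alike. Of 769 genes, none had an adjusted interaction p value under 0.05 and 47 (6.11%) had an unadjusted one. The gene with the smallest was Cd68, a lysosomal protein of microglia and macrophages (interaction 0.53, adjusted p = 0.509).

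Fas and Ch25h are neighbours on chromosome 19 in mouse build GRCm38.p6 (RefSeq), at chr19:34290647-34327775 and chr19:34473783-34475148, with 146 kilobases and no annotated gene between them, an adjacency looked for after their values were seen. Lcn2 lies at chr2:32384637-32387739 and Ly6a at chr15:74994877-74998031. The 250 bases before the start that the promoter table uses are shown for the upregulated genes that this table holds, 3 of 4, since shared letters in front of genes that rose together can be read from them. They are RefSeq sequences, 5′ to 3′ along the gene, and capitals mark the only match found to the motifs searched. The windows are chr2:32387740-32387989 (minus strand), chr19:34290409-34290658 (plus strand) and chr19:34475149-34475398 (minus strand). For Fas the table's start lies a few bases inside the gene span given above, so that the end of its window falls within that span.
Lcn2: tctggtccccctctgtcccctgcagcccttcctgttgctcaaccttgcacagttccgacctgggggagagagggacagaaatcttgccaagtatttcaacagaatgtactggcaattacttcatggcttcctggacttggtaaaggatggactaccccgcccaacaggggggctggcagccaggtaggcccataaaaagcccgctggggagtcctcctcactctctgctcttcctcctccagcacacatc
Fas: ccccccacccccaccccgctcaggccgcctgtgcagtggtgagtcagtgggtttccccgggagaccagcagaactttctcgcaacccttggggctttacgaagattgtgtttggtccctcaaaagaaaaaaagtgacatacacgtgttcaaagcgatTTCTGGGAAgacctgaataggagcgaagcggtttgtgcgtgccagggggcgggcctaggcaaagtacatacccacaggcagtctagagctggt
Ch25h: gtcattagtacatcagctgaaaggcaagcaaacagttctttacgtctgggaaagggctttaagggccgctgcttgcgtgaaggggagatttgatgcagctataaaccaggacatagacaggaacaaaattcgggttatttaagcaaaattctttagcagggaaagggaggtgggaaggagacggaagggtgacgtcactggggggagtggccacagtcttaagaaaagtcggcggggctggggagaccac

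Both strands were searched for the STAT motif TTCNNNGAA and, by name, for the NF-kB motif, a C/EBP motif in a longer and a shorter form, and a glucocorticoid receptor motif half-site AGAACA. The match was TTCTGGGAA, a STAT motif from base -93 to -85 before that start of Fas. Among 32851 promoter windows of the same length, 7.02% held the STAT motif, 7.25% the NF-kB motif, 0.0578% the longer and 0.183% the shorter C/EBP motif, and 16.1% the glucocorticoid half-site. Among the 800 windows of panel genes the shares were 7.75%, 11.0%, 0%, 0.125% and 12.4%. No other match lay in these windows.

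Below the threshold, the next genes included secreted and vascular proteins. Lrg1, a secreted acute-phase glycoprotein, was 4.29 to 6.11 (median 5.34) in tumor-bearing and 4.01 to 5.09 (median 4.51) in vehicle injected mice, with 9 of 10 tumor-bearing mice above the vehicle median. Its log2 difference was 0.76 (SE 0.18, adjusted p = 0.061), and 8 of 10 vehicle and 2 of 10 tumor values lay below the highest Y-linked value. The groups overlapped, and the call changed with several settings: Lrg1 passed with limma's trend option (adjusted p = 0.0483) and with the spread estimated over all regions (adjusted p = 0.00257).

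Slc2a1, the glucose transporter of the blood-brain barrier, was 9.29 to 9.86 (median 9.42) in tumor-bearing and 8.97 to 9.36 (median 9.23) in vehicle injected mice. Tgm2, a protein cross-linking transglutaminase, was 7.24 to 7.95 (median 7.51) and 6.94 to 7.67 (median 7.07). Osmr, the oncostatin M receptor subunit, was 7.15 to 7.67 (median 7.38) and 6.58 to 7.36 (median 7.10). In each of these all 10 tumor-bearing mice lay above the vehicle median although the ranges overlapped, with log2 differences of 0.25, 0.37 and 0.32 (adjusted p = 0.141 each).

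Cdkn1a, the cell cycle inhibitor induced by p53, had a log2 difference of 0.26 (adjusted p = 0.199). Lta, a lymphotoxin subunit, and Hdc, the histamine-synthesizing enzyme, had differences of 0.38 (adjusted p = 0.439) and 0.37 (adjusted p = 0.584) at mean values near the Y-linked range.

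On the negative side no gene passed. Olfml3, a secreted protein of homeostatic microglia, had the smallest p value there, with values of 7.93 to 8.21 (median 8.07) in tumor-bearing and 7.99 to 8.47 (median 8.27) in vehicle injected mice. No tumor-bearing mouse lay above the vehicle median, and the log2 difference was -0.19 (SE 0.05, adjusted p = 0.169). Nlrp3, the inflammasome sensor, was 4.31 to 5.48 (median 4.68) against 4.74 to 5.71 (median 5.15), a difference of -0.38 (adjusted p = 0.439).

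Hspb1, a small heat shock protein of reactive astrocytes, was 6.91 to 8.02 (median 7.64) against 7.22 to 8.61 (median 7.79), a difference of -0.31 (adjusted p = 0.584). Ptx3, a secreted pentraxin, and Ccl2, the monocyte chemokine, had differences of -0.33 and -0.45 (adjusted p = 0.584 each), with no tumor-bearing mouse above the vehicle median of Ccl2. Csf3r, the granulocyte colony-stimulating factor receptor, and Gdpd2, an astrocyte phosphodiesterase, had differences of -0.19 and -0.17 (adjusted p = 0.584 each). Pilra, a myeloid inhibitory receptor, Kcnj10, the astrocyte potassium channel, and Irf3, the interferon regulatory factor, had differences of -0.42, -0.14 and -0.10 (adjusted p = 0.589, 0.589 and 0.632).

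Grouped by role, each of the 4 upregulated genes was the only member of its list to pass. Over all 769 genes tested 4 passed (0.52%), with 340 differences positive and 429 negative, and list counts are to be read beside these. The lists were chosen with earlier results of these data known, and no list was tested as a set. Several list members are not on the panel and were not measured. They include Gfap (pan-reactive astrocyte genes), Aqp4 (astrocyte markers), Stat3 and Il6st (interleukin-6 type signalling), and Mrc1 and Lyve1 (border macrophage markers). Of 7 acute-phase secreted proteins 1 was upregulated (Lcn2), 3 differences were positive and the median was -0.07, against -0.01 over all genes tested. Of 12 genes of interleukin-1 ligands, receptors and signalling none passed, and the largest difference was 0.32 for Il1rl2, an interleukin-36 receptor chain (adjusted p = 0.801). Of 5 genes of oncostatin M and interleukin-6 type signalling none passed, with Osmr the highest. Of 8 prostaglandin and oxysterol genes 1 was upregulated (Ch25h), and Ptgs2, the inducible cyclooxygenase, had a difference of -0.08 (adjusted p = 0.961). Gpr183, a receptor for oxysterols made downstream of Ch25h, had a difference of -0.10 (adjusted p = 0.932).

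Of 14 brain endothelial genes 1 was upregulated (Ly6a), 9 differences were negative and the median was -0.06. Tm4sf1, a tetraspanin-like protein of endothelium, had a difference of -0.19 (adjusted p = 0.67). The summed level of the 14 endothelial genes was 12.17 to 12.44 in tumor-bearing and 12.20 to 12.37 in vehicle injected mice on the log2 scale, ranges that overlapped. In tissue pieces fewer cells of a type and less RNA per cell cannot be told apart.

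Of 16 genes for NF-kB subunits, inhibitors and kinases none passed. Nfkbia, the inhibitor that NF-kB itself induces, was 7.27 to 8.33 (median 7.93) against 6.86 to 7.93 (median 7.67), with a log2 difference of 0.29 (adjusted p = 0.67) that was 0.09 at mid-dark and 0.50 at mid-light. Without vehicle injected mouse 10 at mid-light, which had the lowest value of 6.86, the difference was 0.19. Of 13 p53 target and stress genes 1 was upregulated (Fas). Of the 13 differences 11 were positive, with a median of 0.09. Over all genes 340 of 769 were positive, and of the 13 panel reference genes 10 were.

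Lcn2 is also counted among the pan-reactive astrocyte genes, those raised in many kinds of astrocyte reaction. Of 11 pan-reactive genes 1 was upregulated (Lcn2), and the median was -0.03. None of 8 A1 or 12 A2 reactive astrocyte genes passed, and among the A2 genes 10 of 12 differences were negative with a median of -0.09. None of 12 astrocyte markers passed, and all 12 had a 95% confidence interval within ± 0.5. Their summed level was 14.76 to 14.98 in tumor-bearing and 14.78 to 15.01 in vehicle injected mice.

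Microglial, complement and interferon lists had no gene past the adjusted threshold. Homeostatic microglia markers had 8 of 10 negative differences (median -0.06), all 10 with an interval within ± 0.5, and activated microglia genes had 8 of 15 positive (median 0.0024). Tyrobp, the signalling adaptor of microglial receptors, was 9.10 to 9.35 against 9.07 to 9.50, and no tumor-bearing mouse lay above its vehicle median of 9.39 (log2 difference -0.10, adjusted p = 0.839). Its difference was 0.04 at mid-dark and -0.23 at mid-light (interaction 0.27, limma adjusted p = 0.509). Complement genes had 7 of 9 positive differences (median 0.04), and genes of the interferon pathway 9 of 27 (median -0.03).

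Of the 24 oligodendrocyte and myelin markers 19 had negative differences (median -0.06), against 429 of 769 over all genes, and each interval lay within ± 0.5. Ugt8a, an enzyme of myelin lipid synthesis, had the lowest difference of this list, -0.23 (adjusted p = 0.801). The 25 neuronal and synaptic genes had 14 positive and 11 negative differences (median 0.0051), and Rbfox3, the neuronal nuclear protein, was 11.76 to 12.18 against 11.76 to 12.09. Immediate early genes and growth factors had 10 of 11 negative differences (median -0.07), and chaperones 3 of 4 (median -0.10), with none past the threshold. The 13 panel reference genes had 10 positive differences, a median of 0.02 and 12 intervals within ± 0.5.

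Markers of blood-borne and border cells were mostly near background. Of 21 T and NK cell markers 20 had a mean under 5, of 9 B cell markers 8, of 9 neutrophil, mast cell and monocyte markers 7, and of 6 border macrophage markers 4. None of these markers passed the threshold. The summed level of the neutrophil, mast cell and monocyte markers was 7.72 to 8.18 in tumor-bearing and 7.85 to 8.06 in vehicle injected mice, and that of the T and NK markers was 8.55 to 8.79 and 8.56 to 8.85. For the markers with a mean under 5 a small change was not detectable at this signal. Csf3r, the myeloid receptor described above, lay clear of background, with a difference of -0.19. The part of these cells in the rises of Lcn2 and Ly6a was not tested.

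**Figure D3:**
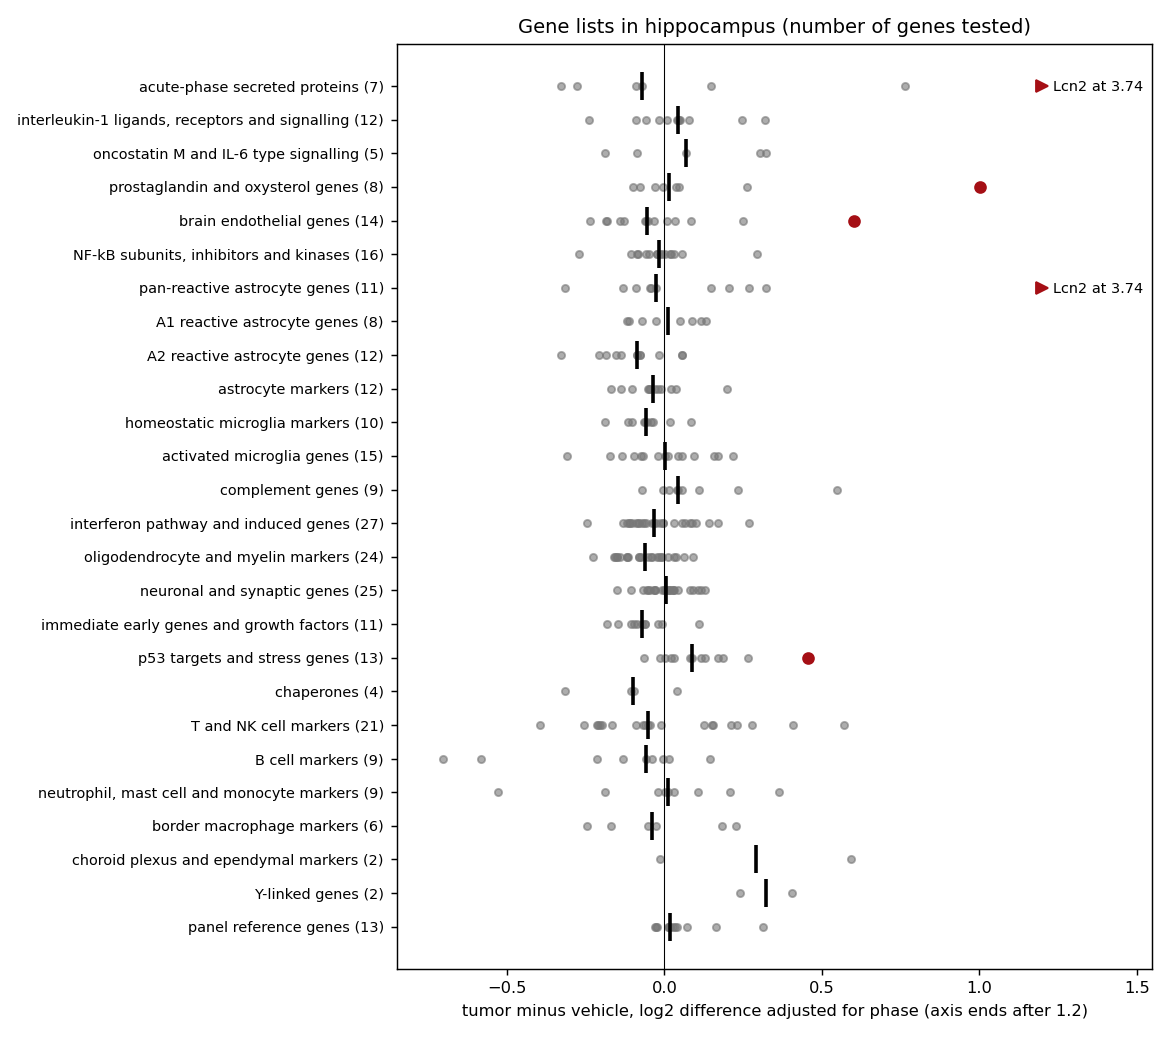
Log2 difference between tumor-bearing and vehicle injected mice, adjusted for phase (x axis), for the genes of 26 lists (rows, number of genes tested in parentheses), with black ticks at each list's median and red marks for adjusted p under 0.05. Lcn2 at 3.74 is drawn as an arrowhead at the axis end. The red marks are Lcn2 in 2 lists, Ch25h, Ly6a and Fas, and list medians lie near 0 except in the lists of 2 genes.

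Ttr, the transthyretin that choroid plexus makes in bulk, varied widely between mice of both groups. It was 5.36 to 14.58 (median 13.24) in tumor-bearing and 6.62 to 14.71 (median 12.19) in vehicle injected mice. Its value was at most 7.78 in 5 samples, 2 tumor-bearing and 3 vehicle injected, and at least 11.46 in the other 15. The tumor-bearing mice with low Ttr, 1 at each phase, had Lcn2 at 7.42 and 8.21, within the upper part of the tumor range. With Ttr as a covariate the 4 genes passed and Lrg1 did too (adjusted p = 0.0415). In the 15 samples with Ttr of at least 10, Lcn2 and Fas passed, whereas Ch25h (log2 difference 0.91) and Ly6a (0.61) each had an adjusted p of 0.0604. With Slc17a6, the marker of neighbouring regions, as a covariate the same 4 genes passed.

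**Figure D4:**
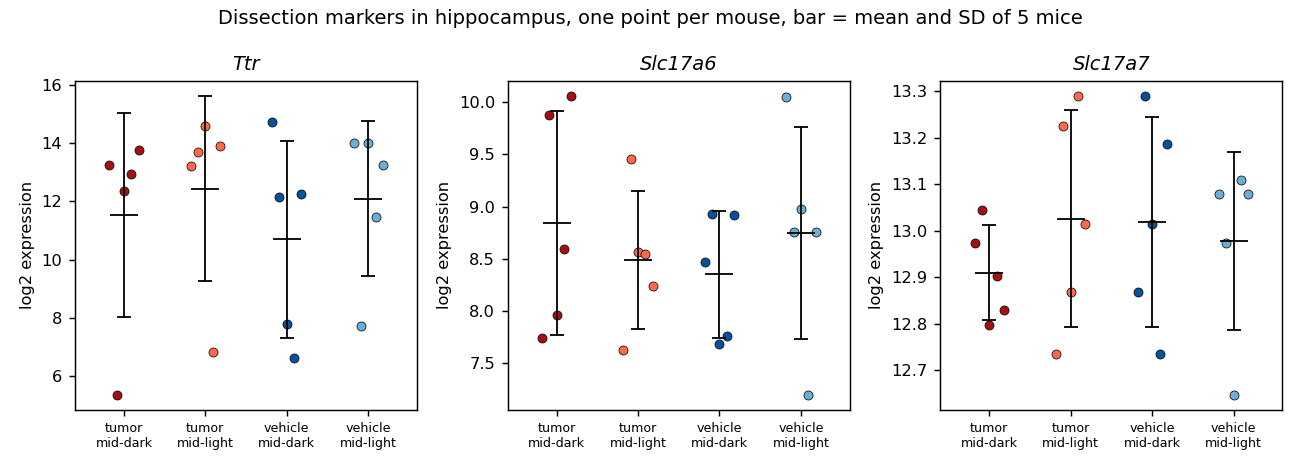
Log2 expression (y axis) of Ttr, Slc17a6 and Slc17a7 in the hippocampus sample of each mouse in the 4 groups (x axis), with bars for the mean and SD of 5 mice. Ttr splits into 5 samples at or below 7.78 and 15 at or above 11.46, with low samples in both tumor-bearing and vehicle injected mice. Slc17a7 stays between 12.65 and 13.29.

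Hippocampus was set against the other regions of the same mice. There were 17 hypothalamus samples (10 tumor-bearing, 7 vehicle injected) and 19 brain stem samples (10 tumor-bearing, 9 vehicle injected). The samples without values were all from vehicle injected mice. The log2 difference of Lcn2 was 3.74 for hippocampus, 2.62 for hypothalamus and 3.31 for brain stem. That of Ly6a was 0.60, 0.56 and 0.58 in that order. In the model over 3 regions neither gene's effect passed as different between hippocampus and another region. The hippocampus minus hypothalamus difference of Lcn2 was 1.12 (95% confidence interval 0.10 to 2.15, limma adjusted p = 0.939). The vehicle means of Lcn2 were 3.53 in hippocampus and 4.26 in hypothalamus and the tumor means 7.27 and 6.92, so that more of this difference lay in the low vehicle values than in the tumor values. Ch25h had 1.00, 0.46 and 1.01, and Fas had 0.46, 0.03 and 0.23. The Fas effect was 0.42 larger in hippocampus than in hypothalamus (95% confidence interval 0.09 to 0.76) and 0.22 larger than in brain stem (-0.10 to 0.54), with adjusted p values of 0.939 and 0.999. The Ch25h effect was 0.55 larger than in hypothalamus (-0.07 to 1.17, adjusted p = 0.966), so that neither gene can be called particular to hippocampus.

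For the inflammatory genes Il1r1, the interleukin-1 receptor, and Ptgs2, the inducible cyclooxygenase, no rise was measured in hippocampus. Il1r1 was 8.59 to 9.73 (median 9.35) in the hippocampus of tumor-bearing and 9.01 to 9.51 (median 9.30) in that of vehicle injected mice, and Ptgs2 was 8.95 to 10.05 (median 9.58) and 9.37 to 10.21 (median 9.68). The log2 differences, in the same order of regions, were 0.01, 0.40 and 0.61 for Il1r1 and -0.08, 0.58 and 0.71 for Ptgs2. Both passed in brain stem (adjusted p = 0.000347 and 0.00118), where 6 of 770 genes (0.779%) did, and neither passed in hypothalamus (adjusted p = 0.139 and 0.0649), where 4 of 770 (0.519%) did. In the hippocampus of vehicle injected mice both genes already stood higher than in brain stem, at means of 9.30 against 7.08 for Il1r1 and 9.68 against 5.18 for Ptgs2.

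The hippocampus minus brain stem differences were -0.60 and -0.79 (adjusted p = 0.117 each from limma), and none of 770 genes passed (0%, with 10 genes or 1.3% at an unadjusted p under 0.05). Since the regions came from the same mice, the fit was repeated with the mouse as a block, which gave -0.61 (SE 0.14) and -0.79 (SE 0.19), each with an adjusted p of 0.0459, the 2 genes of 770 that passed (0.26%, with 19 or 2.47% at an unadjusted p under 0.05). Between hippocampus and hypothalamus none of 770 genes passed (0%) with or without the block, and 38 (4.94%) had an unadjusted p under 0.05 without it and 42 (5.45%) with it. E2f1, a cell cycle transcription factor, had the smallest p value, with log2 differences of 0.06 in hippocampus and -0.61 in hypothalamus (difference 0.67, adjusted p = 0.352, or 0.128 with the block). Within hypothalamus the E2f1 difference passed (limma adjusted p = 0.00498). The forebrain marker Slc17a7 had a difference of -0.90 in hypothalamus (limma adjusted p = 0.386), and its bearing on E2f1 was not tested.

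**Figure D5:**
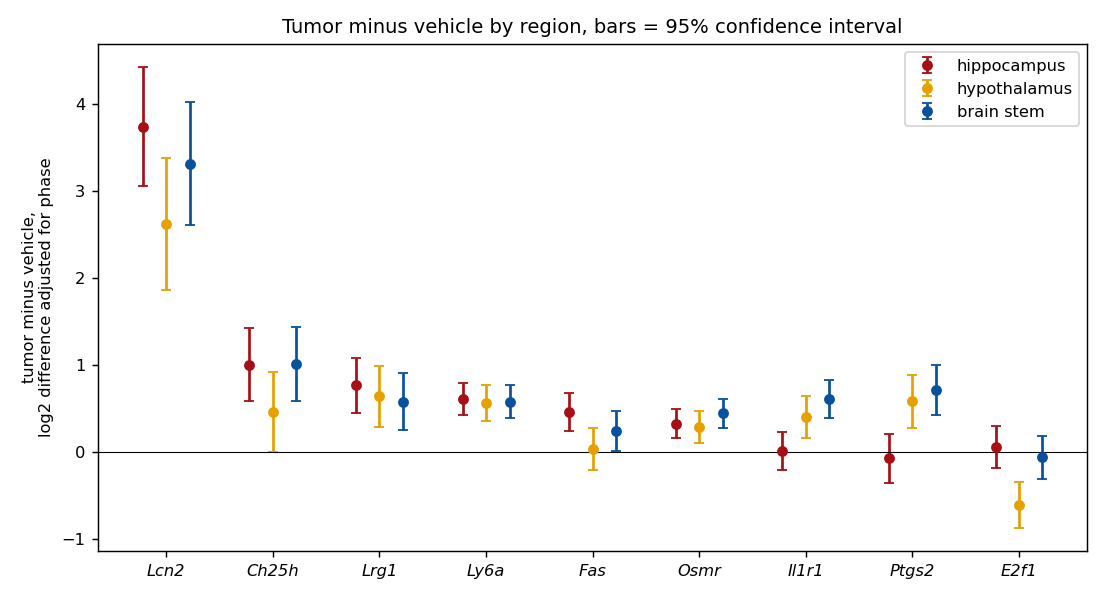
Log2 difference between tumor-bearing and vehicle injected mice, adjusted for phase (y axis), with 95% confidence intervals, for 9 genes (x axis). Samples numbered 20 in hippocampus, 17 in hypothalamus (7 of them vehicle) and 19 in brain stem (9 of them vehicle). Lcn2 and Ly6a lie above 0 in each region, whereas Il1r1 and Ptgs2 lie at 0.01 and -0.08 in hippocampus and above 0 in brain stem.

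Among the 10 tumor-bearing mice, hippocampal Lcn2 was set against tumor mass (2.31 to 5.00 g, both glands summed) and spleen mass (0.184 to 0.269 g). With tumor mass, Pearson's r was 0.589 (permutation p = 0.0748, Benjamini-Hochberg adjusted over 2 relations 0.125) and Spearman's rho 0.535 (permutation p = 0.115, adjusted 0.172). Without the 2 mice farthest from the median tumor mass, r was 0.315, over a narrower range of mass. With spleen mass, r was 0.519 (permutation p = 0.125, adjusted 0.125) and rho 0.468 (permutation p = 0.172, adjusted 0.172), and r was 0.0859 without the 2 farthest mice. Neither relation held up against the spread between mice, and with 5 mice in each phase none was computed within a phase. With phase means subtracted, a setting chosen after the data were seen, r was 0.688 for tumor mass (exact permutation p = 0.0465, mice exchanged within phases, adjusted 0.0931) and 0.553 for spleen mass (exact permutation p = 0.199, adjusted 0.199).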

How the data were processed

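The authors' deposited values are log2 counts from the nCounter panel. By their methods, the authors subtracted negative-control background, normalized to positive controls and to the geometric mean of the code set in nSolver Analysis, and quantile normalized in Partek GS. Per the labels, samples judged outliers by their raw data did not enter normalization. Quantile normalization gives samples nearly the same set of values, which hides any shift shared by most genes. Cartridge and run are not given in the sources used here. Groups came from the labels, and the members, gene lists and tests were chosen with earlier results of these data known. Differences between tumor and vehicle were fitted with limma 3.58.1 (R 4.3.3), with phase as a covariate and Benjamini-Hochberg adjustment over 769 genes, and 17 residual degrees of freedom. Ppp3ca had 1 value in all hippocampus samples and was not tested. Regions were compared in 1 fit over 56 samples, with a mean, a phase term and a tumor term for each region. Replicate numbers pair samples because they name the same mouse, and the consensus correlation within mice was 0.141. Correlations used 100000 permutations. Named genes were those past the adjusted threshold, then the 10 of smallest p value in each direction, up to 2 per list, the gene of smallest p value per region difference, and Slc17a7, Slc17a6, Tbr1, Rbfox3 and Ttr. Ch25h, Lcn2 and Fas sequences are from RefSeq, where 763 of 770 panel genes had a position. The scripts were tested on simulated data. Alternatives covered limma's options, filters, scalings, covariates and leaving out each mouse. A result for 1 gene is not reported here.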

Additional observations from a re-analysis of the deposited data

Results flagged for a closer look

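Among 236 groups of 5 mice (59 named genes), 17 held a mouse far from the rest by Dixon's criterion, in 11 mice, where chance alone gives about 1 in 20 groups. For the upregulated genes this was Ly6a in tumor-bearing mouse 1 at mid-light, at 7.23 against 7.63 to 7.78 in the others. Lrg1 was 4.80 in tumor-bearing mouse 7 at mid-dark against 5.31 to 5.37. Ttr was 5.36 in mouse 7 and 6.82 in tumor-bearing mouse 13 at mid-light, against at least 12.4 and 13.2 in the others of their groups. Trp73, a transcription factor listed here with Ttr as an ependymal and choroid plexus marker, was 5.60 in mouse 7 against 6.65 to 6.82. Trp73 did not vary as Ttr did in vehicle injected mice, where Trp73 was 6.54 to 7.01 and Ttr 6.62 to 14.71. Which cells gave its signal was not tested. Mouse 13 was also flagged in myeloid genes, but not in the same direction. It was lower than the others of its group in Tyrobp (9.10 against 9.22 to 9.24) and Siglec1 (4.00 against 4.45 to 4.55). In C5ar1 it was higher (5.56 against 4.89 to 5.08). Mouse 29 (tumor, mid-light) had Bag3 at 7.07. Gpr183 was 5.52 in mouse 9 (tumor, mid-light) and Ikbke 5.00 in mouse 3 (tumor, mid-dark). In vehicle injected mice, Gusb was 7.07 in mouse 30 and Nfkbia 6.86 in mouse 10 at mid-light, and Ccl4 was 3.17 in mouse 28 at mid-dark. Uty, a background probe in females, was 4.46 in tumor-bearing mouse 19 and -0.37 in vehicle injected mouse 6.

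Only with the mouse as a block did the tumor effect pass as different between hippocampus and brain stem, for Il1r1 (-0.61) and Ptgs2 (-0.79). Each had a limma adjusted p of 0.0459 there. In the main fit without the block each had an adjusted p of 0.117, and 0 of 770 genes passed. Neither fit took account of RNA purity, which reached lower in brain stem samples of tumor-bearing mice.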

How the results depend on the processing

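Lcn2 and Fas passed under all 35 fits tried, Ly6a under 34 and Ch25h under 33 of the 34 that tested it (with a mean of at least 5 required, 3 genes passed and Ch25h was not tested). The number upregulated was 4 to 6 when each mouse was left out in turn, and the number downregulated 0 to 1, the exception being Olfml3 (-0.22, adjusted p = 0.0247) without vehicle injected mouse 8 at mid-dark. Without mouse 1, Cdkn1a (0.31, adjusted p = 0.0251) and Lrg1 passed, Lrg1 also without mouse 29 or mouse 6, and Tgm2 (0.42, adjusted p = 0.0367) without mouse 22. Osmr passed with the spread estimated over all regions (adjusted p = 0.0363). In the 15 samples with Ttr of at least 10, chosen after seeing the data as were the Ttr and Slc17a6 covariates, 2 genes were upregulated, and small differences changed sign for Tbr1 (-0.013), E2f1 (-0.026), Ptgs2 (0.070), Slc17a6 (-0.23) and Trp73 (0.12). Trp73 was also 0.068 with array quality weights and 0.0019 with Slc17a6 as a covariate, and Rbfox3 -0.031 after subtracting the reference gene mean, which moved the median of all genes to -0.06. Leaving out 1 mouse gave ranges that crossed 0 for Trp73 (-0.049 to 0.10), Slc17a6 (-0.049 to 0.29), Rbfox3 (-0.0090 to 0.045), E2f1 (-0.0011 to 0.094) and Slc17a7 (-0.073 to 0.0067), and the cause of these changes was not tested. With the replicate block by mouse, 2 genes differed between hippocampus and brain stem against 0 without it, and in the fit over 3 regions the hippocampal difference of Slc2a1 passed with the block (adjusted p = 0.0269) and not without it (adjusted p = 0.056), while no other named gene's call in hippocampus changed. Subtracting phase means, also chosen after seeing the data, gave r = 0.688 for Lcn2 against tumor mass (exact permutation p = 0.0465 within phases, adjusted over 2 relations 0.0931). A block within hippocampus was not run since each mouse gave 1 sample there. Signal near the Y-linked range limits Lcn2, Ch25h and Lrg1 in vehicle injected mice and 146 genes with a mean under 5.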
